A study of Mus musculus with 8 samples.

Results

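Lcp1, Fermt3 and Csf1r are 3 genes known from microglia and other white blood cells, and they are described here in hippocampal RNA of mice labelled as knockouts of the chromatin protein Jade2 and of controls. Members were the transcripts of a deposited abundance table that carry one of these 3 symbols, together with unnamed merged models of the same locus. The rule gave 4 transcripts of 3 loci, out of 1679 transcripts of 1404 loci. They were chosen because they differed between the groups, so their group differences are a description and were not tested. RNA came from the hippocampus of C57BL/6 mice at 8 weeks of age. The controls are wild type (4 libraries) and the other group is Jade2 knockout (4 libraries). The labels name no treatment and do not say whether the knockout is limited to some cells. They also do not say that each library came from a separate animal, so spreads are between libraries and may be technical.

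Microglia are the resident macrophages of the brain. Csf1r encodes the receptor for colony-stimulating factor 1 and interleukin 34, and microglia depend on its signal to survive. Lcp1 encodes L-plastin, which bundles actin filaments in blood-derived cells and in macrophages when they move and engulf. Fermt3 encodes kindlin-3, which binds the tails of beta integrins and helps to activate them in leukocytes and platelets. In bulk tissue, fewer cells of a type and less RNA per cell cannot be told apart.

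The table is a selected list. In the authors' deposited table unadjusted p-values reach 0.0498 at most and the smallest log2 fold change is 1.00 in size, and its adjusted p-values imply that 104721 transcripts were tested. Abundances are taken as FPKM, reads scaled to transcript length and to library size, which allows levels of different genes to be compared. Median listed abundance per library was 0.773 to 0.900 FPKM, and depth is unknown because no counts were used. The annotated Jade2 transcript was listed at 0 in all 4 knockouts and at 1.41 to 5.05 FPKM in the controls. The 5 listed rows of the Jade2 locus summed to 8.07 to 19.5 FPKM in the knockouts and 4.45 to 16.0 FPKM in the controls. Of its 4 merged models 3 were at 0 in all controls, and the fourth, MERGE.3721.8, was at 1.79 to 11.8 FPKM in the controls and at most 0.00225 FPKM in the knockouts. The sums overlap between the groups, so the listed sum does not separate the labels, whereas the annotated transcript does. Each listed row was selected on this same contrast, so that separation is no independent check of the labels. Isoforms outside the list were not analysed here, so no value below is a whole-gene level.

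The isoforms that were listed are best seen against the annotation (GENCODE M21 on GRCm38, the same assembly as mm10). Lcp1 has 11 annotated isoforms, of which 1 was listed: Lcp1-209 (ENSMUST00000145303, chromosome 14, 75136332 to 75230842, plus strand, 17 exons, 3841 bases). It encodes 627 amino acids, and its coding part is identical to those of Lcp1-202 and Lcp1-206, which start elsewhere. Fermt3 has 5 annotated isoforms, of which 1 was listed: Fermt3-201 (ENSMUST00000040772, chromosome 19, 6998958 to 7019469, minus strand, 15 exons, 2587 bases, 665 amino acids). The other Fermt3 row is MERGE.12388.2, which spans 6999020 to 7019442 on the same strand. Csf1r has 6 annotated isoforms, of which 1 was listed: Csf1r-201 (ENSMUST00000025523, chromosome 18, 61105572 to 61131134, plus strand, 22 exons, 3870 bases, 977 amino acids). Csf1r-202 has the identical coding part.

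**Figure D1:**
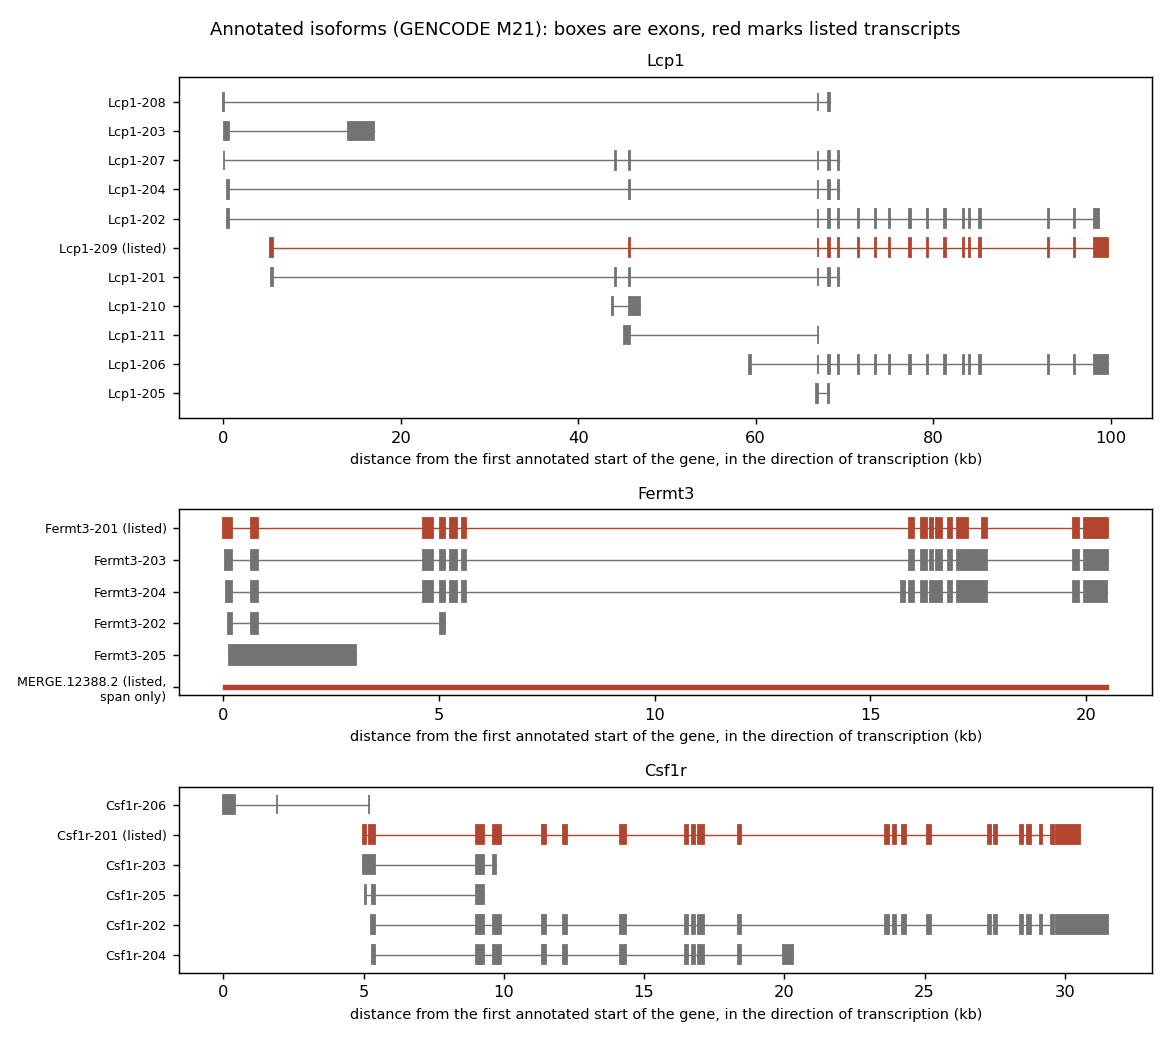
Exons (boxes) of every annotated isoform of Lcp1, Fermt3 and Csf1r against distance in kb from the first annotated start of the gene, in the direction of transcription. Red marks the listed transcripts. MERGE.12388.2 is drawn as a span because its exons are unknown here. Lcp1-209 begins 5231 bases downstream of the first Lcp1 start.

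Few bases set these listed isoforms apart from their annotated relatives. Lcp1-209 has 169 of its 3841 exon bases (4.4%) in no other annotated Lcp1 isoform, and none of them is coding. Of those 169 bases, 143 lie under Gm15628, a long noncoding RNA gene on the opposite strand, and 26 lie past the end of every other isoform. Fermt3-201 has 52 such bases (2.01%), 39 at its start and 13 at its end. Those 13 lie under Trpt1, a gene on the opposite strand. Csf1r-201 has 19 such bases (0.491%). Over 1093 listed annotated transcripts whose gene has other isoforms, the median was 2.40%, so low shares are common in the list. No source used here says whether quantification used strand, and without it reads of Lcp1 and Gm15628 cannot be told apart over those 143 bases. The same limit holds for exon bases shared with other isoforms. In all, 311 exon bases of Lcp1-209 lie under Gm15628 and 87 under Gm15629, an antisense gene. For Fermt3-201, 89 exon bases lie under Trpt1. MERGE.12388.2 begins 27 bases downstream of Fermt3-201 and ends 62 bases short of it. Its ends also lie close to those of Fermt3-203 and Fermt3-204, which are annotated as subject to nonsense-mediated decay, and they match no annotated Fermt3 isoform exactly.

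Lcp1 has more than one annotated start and the listed isoform uses a downstream one, so the DNA before both is shown, with the Fermt3 start for comparison. RefSeq windows of 300 bases (GRCm38.p6, 250 before a start and 50 after) matched 2 of the 3 genes, with 3 windows. Only bases upstream of the annotated exons of that start are printed, 5′ to 3′ on the strand of the gene, and capitals mark CG dinucleotides. The first Lcp1 stretch lies before the upstream start, which Lcp1-209 does not use (chr14:75130873-75131100, plus strand). The second lies directly before Lcp1-209 (chr14:75136175-75136331, plus strand). The Fermt3 stretch lies directly before Fermt3-201 (chr19:7019470-7019719, minus strand).
Lcp1 upstream start: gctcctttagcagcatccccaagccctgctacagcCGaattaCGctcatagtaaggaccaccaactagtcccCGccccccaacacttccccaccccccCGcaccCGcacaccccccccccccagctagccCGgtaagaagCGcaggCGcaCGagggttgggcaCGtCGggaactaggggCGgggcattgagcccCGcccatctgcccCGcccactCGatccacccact
Lcp1-209 start: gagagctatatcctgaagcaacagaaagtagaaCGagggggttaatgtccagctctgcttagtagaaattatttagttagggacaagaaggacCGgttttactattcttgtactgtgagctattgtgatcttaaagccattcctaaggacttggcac
Fermt3 start: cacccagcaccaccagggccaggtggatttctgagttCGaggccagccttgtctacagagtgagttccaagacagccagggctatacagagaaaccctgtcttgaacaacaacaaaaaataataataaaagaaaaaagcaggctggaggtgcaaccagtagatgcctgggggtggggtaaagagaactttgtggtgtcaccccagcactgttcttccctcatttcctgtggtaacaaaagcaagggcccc

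The upstream Lcp1 window held 19 CG dinucleotides in 300 bases, the window at the Lcp1-209 start 4 and the Fermt3 window 3. The median over 32851 RefSeq windows was 7. The GC box GGGCGG was found 4 times on either strand in the upstream Lcp1 window and not in the other windows, and 35.7% of all windows hold it. Neither the core of the PU box, GAGGAA, known from binding of the macrophage factor PU.1, nor the TATA box TATAAA was found on either strand in these 3 windows. Those motifs do not overlap one another, and 28.3% and 13.6% of all windows hold them. A match or its absence describes these letters only.

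The Lcp1-209 isoform of L-plastin was listed in every knockout library and in no control library. Its abundance was 2.91, 2.81, 2.66 and 2.44 FPKM in knockout replicates 1 to 4 and 0 in all 4 controls. The groups do not overlap, and the 4 knockout values lie close together. The knockout mean was 2.71 ± 0.201 FPKM (SD, n = 4), a coefficient of variation of 7.43%. Among 623 listed transcripts with a knockout mean from 1 to 5 FPKM the median coefficient was 48.4%, and 4 had one as low as this, Lcp1-209 included. A small spread can favour a small p, so this evenness may be part of what placed the transcript in the list. That was not tested. In the authors' deposited table its log2 fold change is 10.52, which depends on how a control value of 0 was handled, and no fold is given here. Its unadjusted p of 5.98e-10 is the smallest in the authors' deposited table, with an adjusted p of 6.27e-05. Of the 4 member transcripts it alone has an adjusted p under 0.05 there. Of all listed transcripts 0.893% do, 0.536% as higher and 0.357% as lower in the knockout. Such zeros may reflect failed estimation, reads divided among isoforms in another way, or absence of the isoform. Which of these holds was not tested. The other 10 Lcp1 isoforms were not analysed here, so the sum over listed rows of this locus is the isoform itself.

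**Figure D2:**
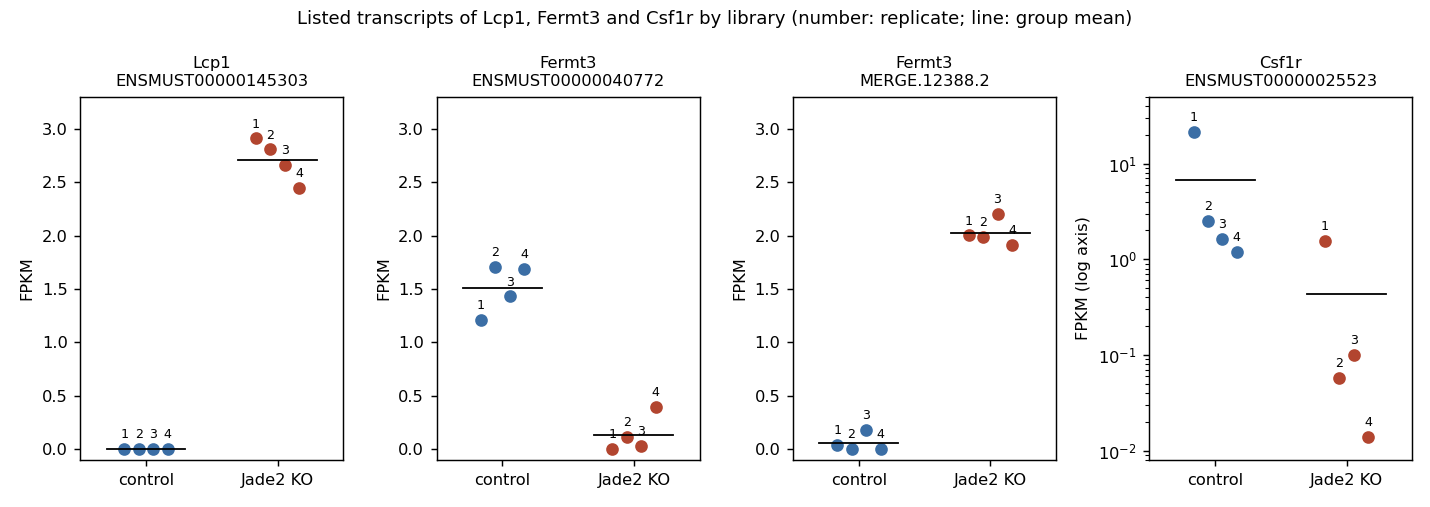
Abundance in FPKM of each of the 4 member transcripts in the 4 control (blue) and 4 Jade2 knockout (red) libraries, with the replicate number at each point and the group mean as a line. The Csf1r axis is logarithmic. Groups are apart for Lcp1 and both Fermt3 rows and overlap for Csf1r, where replicate 1 is the highest in each group.

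Fermt3 had 2 listed rows that went in opposite directions. Fermt3-201, which encodes full-length kindlin-3, was at 1.21, 1.71, 1.43 and 1.69 FPKM in control replicates 1 to 4. In knockout replicates 1 to 4 it was at 0, 0.118, 0.0318 and 0.397 FPKM. Every knockout value lies below every control value. Group means were 0.137 ± 0.180 FPKM for knockouts and 1.51 ± 0.236 FPKM for controls (SD, n = 4 in each), a difference of -1.69 on the log2(FPKM + 0.5) scale. In the authors' deposited table its log2 fold change is -5.12 with an unadjusted p of 0.00175 and an adjusted p of 0.822.

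The merged model MERGE.12388.2 had the reverse pattern. Knockout replicates 1 to 4 gave 2.0, 1.99, 2.20 and 1.91 FPKM, and the controls stood at 0.0381, 0, 0.178 and 0 FPKM. Every knockout value lies above every control value, and the knockout values are again close together, with a coefficient of variation of 6.15%. Group means were 2.03 ± 0.125 FPKM for knockouts and 0.0539 ± 0.0844 FPKM for controls (SD, n = 4 in each), a difference of 2.20 on the log2(FPKM + 0.5) scale. In the authors' deposited table its log2 fold change is 7.0 with an unadjusted p of 0.000194 and an adjusted p of 0.201. Because its exons are unknown, whether it encodes kindlin-3 is unknown too.

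Summed over both rows, the Fermt3 locus differed far less between the groups than either row. The sums were 2.0, 2.11, 2.24 and 2.31 FPKM in knockout replicates 1 to 4 and 1.25, 1.71, 1.61 and 1.69 FPKM in control replicates 1 to 4. The lowest knockout sum lies above the highest control sum. Scaling by library median lowers knockout replicate 1 (factor 0.967) and raises control replicate 2 (factor 1.13). That brings the lowest knockout and highest control sums almost level, still without overlap, so the width of the gap depends on the scaling. The factors come from listed transcripts only, which were selected on this same contrast. Means were 2.16 ± 0.136 and 1.56 ± 0.214 FPKM (SD, n = 4 in each), a ratio of 1.39, and the difference was 0.37 on the log2(FPKM + 0.5) scale. Of 138 loci with listed transcripts in both directions, 5 (3.62%) had locus sums higher in the knockout without overlap, this one among them, and 1 (0.725%) had lower ones. The merged model made up 100, 94.4, 98.6 and 82.8% of the sum in knockout replicates 1 to 4, and 3.05, 0, 11.1 and 0% in control replicates 1 to 4. Knockout replicate 4 kept the largest knockout share of Fermt3-201, at 17.2%. The 4 other annotated Fermt3 isoforms were not analysed here and are in neither sum.

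**Figure D3:**
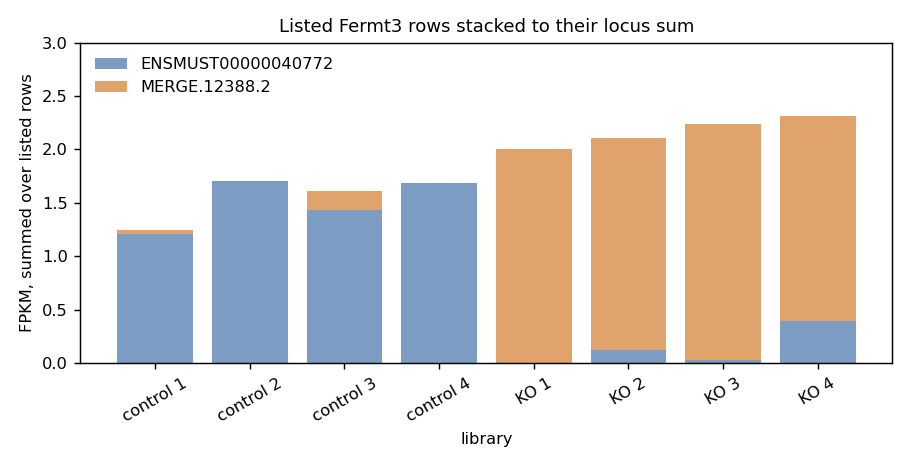
Stacked bars of the 2 listed Fermt3 rows in each of the 8 libraries, in FPKM, with the bar height equal to their sum. Controls (1.25 to 1.71) consist mostly of ENSMUST00000040772 and knockouts (2.0 to 2.31) mostly of MERGE.12388.2.

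Csf1r-201, the CSF1 receptor isoform, was lower in the knockout on average, and its groups overlapped. It was at 21.3, 2.53, 1.64 and 1.19 FPKM in control replicates 1 to 4, and at 1.57, 0.0573, 0.0992 and 0.0140 FPKM in knockout replicates 1 to 4. Knockout replicate 1 lies above control replicate 4 and just below control replicate 3. In each group replicate 1 stands far above the other libraries. Means were 0.434 ± 0.755 FPKM for knockouts and 6.66 ± 9.77 FPKM for controls (SD, n = 4 in each), so the spread exceeds the mean in both. Medians were 0.0783 and 2.09 FPKM. The difference was -2.35 on the log2(FPKM + 0.5) scale, -1.53 without control replicate 1 and -2.82 without knockout replicate 1. Without both libraries numbered 1, a choice made after seeing the data, it was -2.0 and the means were 0.0568 and 1.79 FPKM. In the authors' deposited table its log2 fold change is -4.96 with an unadjusted p of 0.0175 and an adjusted p of 0.888, a value shared by 1548 listed transcripts.

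Over all listed transcripts, replicate 1 was the highest of its group in both groups for 118 (7.03%), against 108 to 114 for each other number. By the size of the gap to the next library relative to the range of the group (Dixon's criterion), knockout replicate 1 stood far above the other 3 knockouts for 79 (4.71%), the most of any library, against 56 to 62 for each other knockout and 60 to 70 for each control.

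With no overlap between groups, 2 of the 4 member transcripts were higher and 1 was lower. Over all listed transcripts these shares are 19.7% and 16.4%, a background set largely by the selection of the list. In the controls Csf1r-201 had the highest mean level per length, then Fermt3-201, with Lcp1-209 at 0. Control values of Csf1r-201 and Fermt3-201 overlap in range, so that order does not hold beyond their spread. In the knockouts Lcp1-209 was highest and MERGE.12388.2 second, and their ranges do not overlap.

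Whether the genes vary together within groups was examined on deviations from the group means, which do not hold the contrast that chose them. This could be done for 1 pair, the locus sums of Fermt3 and Csf1r, since Lcp1 was at 0 in a whole group. Over 8 libraries Pearson's r was -0.92 (two-sided exact permutation within groups, 576 pairings, p = 0.0330) and Spearman's rho -0.60 (exact permutation p = 0.212), with adjusted values equal to these because 1 pair was tested. Without the 2 libraries farthest from the median of Fermt3, which are knockout replicate 1 and control replicate 1, r was 0.06 (exact permutation p = 0.944). The relation therefore rests on those libraries, in which Csf1r-201 was highest and the Fermt3 sum lowest of its group.

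Listed transcripts most like each member in profile were found by the root mean square difference of log2(FPKM + 0.5) over the 8 libraries after subtracting the mean of each transcript. Lcp1-209 and MERGE.12388.2 were near each other, at 0.28, second and first in their respective orders. Nearest to Lcp1-209 was Spcs1 ENSMUST00000228736, of a signal peptidase subunit, at 0.22. In knockout replicates 1 to 4 that Spcs1 isoform was at 2.86, 2.92, 3.48 and 1.58 FPKM, and it did not exceed 0.0225 FPKM in any control. The third was Dis3l ENSMUST00000120760, of an exosome exonuclease, at 0.37. For MERGE.12388.2 the second was Msl1 ENSMUST00000107485, from the gene of a subunit of a histone acetyltransferase complex, at 0.31. It was at 3.94, 7.6, 4.34 and 3.97 FPKM in the knockouts and 1.09, 0.484, 0.856 and 0.656 FPKM in the controls, and the third was again Spcs1, at 0.32.

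Fermt3-201 was most like the noncoding Ctnnd1 isoform ENSMUST00000145312 at 0.29, then Hdlbp ENSMUST00000186787 at 0.31 and Lamp5 ENSMUST00000123436 at 0.32. Ctnnd1 encodes p120 catenin, which binds cadherins, and Hdlbp encodes the RNA-binding protein vigilin. The Lamp5 isoform shared the high value in knockout replicate 4, at 0.615 FPKM against 0.0200 to 0.0401 FPKM in the other knockouts. Csf1r-201 had no match as close. Its nearest was Mfge8 ENSMUST00000032825, at 0.48, which encodes a secreted protein that bridges dying cells and phagocytes. Mfge8 was at 30.8, 2.98, 3.64 and 3.97 FPKM in control replicates 1 to 4, and at 2.68, 0.366, 1.15 and 1.06 FPKM in knockout replicates 1 to 4. Control replicate 1 stood far above the others, as for Csf1r-201, and knockout replicate 1 was the highest knockout for both. The next were merged models at Arhgap20, at 0.77, and Mphosph8, at 0.78, both named by position. All transcripts compared were selected on the same contrast, so a shared step between the groups is no sign of a link. The nearest ones were picked over these same libraries, so a shared high library is no sign of a link either.

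**Figure D4:**
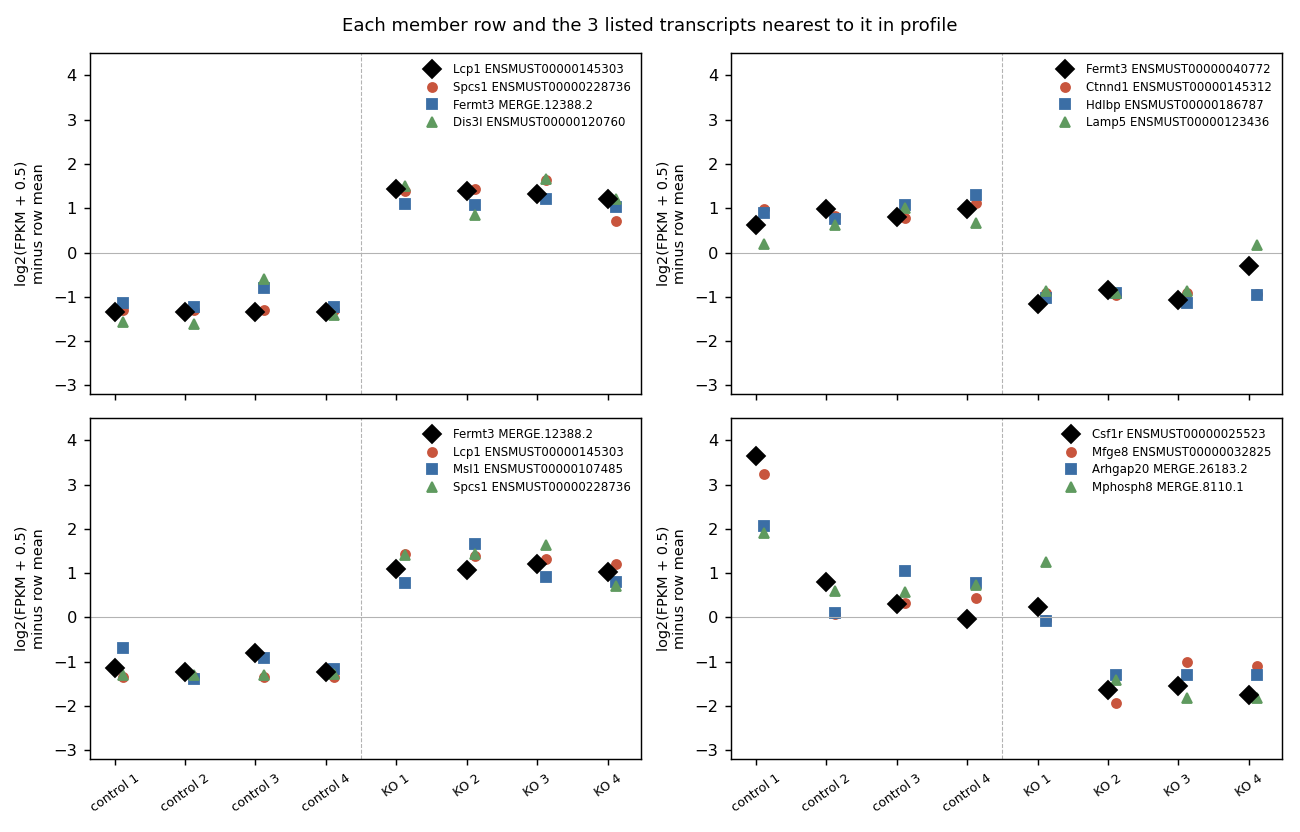
Values of log2(FPKM + 0.5) minus the mean of the transcript in each of the 8 libraries, for each member (black diamonds) and its 3 nearest listed transcripts (coloured marks). Lcp1-209 and MERGE.12388.2 form level steps between the groups, and Fermt3-201 is higher in knockout replicate 4 than in the other knockouts. Csf1r-201 and Mfge8 share a high control replicate 1.

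Other genes of the same cells and pathways were taken from fixed lists, and all transcripts counted below have been selected on the contrast. The median log2 fold change of all listed transcripts in the authors' deposited table is -1.04, with 815 higher and 864 lower. Of 24 microglia marker genes 2 had a listed transcript, Csf1r and Selplg, and both were lower in the knockout, with log2 fold changes of -4.96 and -3.76 in that table. Selplg ENSMUST00000201931, of the selectin ligand PSGL-1, was at 0.509, 0.758, 0.264 and 4.20 FPKM in controls and 0, 0.220, 0 and 0.662 FPKM in knockouts. Its groups overlap, and control replicate 4 stands apart. The 2 transcripts together summed to 0.0992 to 1.57 FPKM in the knockouts and 1.91 to 21.8 FPKM in the controls, most of the top value being Csf1r-201. The other 22 markers, with Cx3cr1, P2ry12, Tmem119 and Aif1 among them, had no listed transcript and were not analysed here, so the table cannot check the tissue for its microglia.

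None of the 20 genes of the microglial activation and complement list had a listed transcript. The same holds for the 12 border macrophage and monocyte markers, the 11 markers of T, B and NK cells, the 8 of neutrophils and mast cells and the 7 of platelets. Lcp1 and Fermt3 are used by many of these cells, and the part of such cells in the member values was not tested. Markers of other brain cells were few. Of 7 neuron markers 1 was listed, a merged model at Rbfox3, which encodes the neuronal nuclear protein NeuN. It was at 43.8, 1.38, 47.7 and 36.1 FPKM in controls 1 to 4 and at 1.32, 0.0444, 0.00878 and 0.0173 FPKM in knockouts 1 to 4. The astrocyte list (6 genes) had none, the oligodendrocyte list 1 of 5 (Mag, lower) and the endothelial list 1 of 5 (Ly6c1, higher). The part of these cells in the member values was not tested either.

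The few listed downstream partners of the CSF1 receptor went in the direction opposite to Csf1r-201. Of 22 genes in that list 5 had listed transcripts, and leaving out Csf1r these were 6 transcripts of 4 genes, all higher in the knockout. Over the whole list 815 of 1679 transcripts were higher. Inpp5d, which encodes the lipid phosphatase SHIP1 of blood cells and microglia, had 3 of them. Inpp5d ENSMUST00000042275 was at 0.738, 0.597, 0.660 and 1.63 FPKM in knockouts 1 to 4 and at 0, 0.420, 0 and 0.481 FPKM in controls. Inpp5d ENSMUST00000170300 was at 0.682, 1.08, 0.689 and 0.654 FPKM in knockouts and 0.617, 0, 0 and 0.604 FPKM in controls. Both rows do not overlap between groups, although the highest Inpp5d control values come close to the lowest knockout ones. Inpp5d ENSMUST00000168783 was at 0.575, 0.579, 0.790 and 0.571 FPKM in knockouts and 0.723, 0, 0 and 0.765 FPKM in controls, which overlap. All 3 Inpp5d isoforms were listed at 0 in control replicate 3, and 2 of them also in control replicate 2. Grb2 ENSMUST00000021090, of an adaptor of receptor tyrosine kinases, averaged 31.6 ± 6.65 FPKM over knockouts and 12.4 ± 11.9 FPKM over controls (SD, n = 4 in each). Stat3 ENSMUST00000103114, of a transcription factor of cytokine signalling, averaged 1.83 ± 0.175 FPKM over knockouts (SD, n = 4) and was at 0, 1.5, 1.94 and 0 FPKM in controls. A merged model at Pik3cd, of a leukocyte phosphoinositide kinase, averaged 3.28 ± 2.03 FPKM over knockouts and 0.985 ± 0.775 FPKM over controls (SD, n = 4 in each). Groups overlap for Grb2, Stat3 and Pik3cd. Thus 2 of the 6 transcripts, both of Inpp5d, were higher without overlap, against 19.7% of all listed transcripts.

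Partners of kindlin-3 in integrin activation were listed in both directions. Of 28 genes 5 had listed transcripts, and leaving out Fermt3 there were 3 higher and 1 lower. A merged model at Rasgrp2, of an exchange factor that activates Rap1 in platelets and leukocytes, was at 2.49, 1.85, 2.12 and 3.59 FPKM in knockouts and 1.01, 0.740, 1.74 and 0.733 FPKM in controls, with no overlap. A retained-intron isoform of Ilk (ENSMUST00000154626), the integrin-linked kinase gene, averaged 13.6 ± 6.55 FPKM over knockouts and 6.10 ± 1.29 FPKM over controls, also without overlap (SD, n = 4 in each). Ptk2b ENSMUST00000089250, of the kinase PYK2, averaged 88.4 ± 47.6 FPKM over knockouts and 18.1 ± 16.2 FPKM over controls (SD, n = 4 in each), and knockout replicate 2, at 19.0 FPKM, lay within the control range. The lower one was a merged model at Ptk2, of focal adhesion kinase, listed at 0 in all knockouts and at 0.721, 4.61, 1.57 and 0 FPKM in controls. No integrin, talin or other kindlin of the list had a listed transcript. Of 14 actin bundling genes 2 were listed, Lcp1 and Fmnl1. Fmnl1 ENSMUST00000042286, of a leukocyte formin, averaged 0.878 ± 0.254 FPKM over knockouts and 2.47 ± 1.62 FPKM over controls (SD, n = 4 in each), with overlap. In the authors' deposited table, every transcript of these lists other than Lcp1-209 and the Fermt3 rows has an adjusted p of 0.888.

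**Figure D5:**
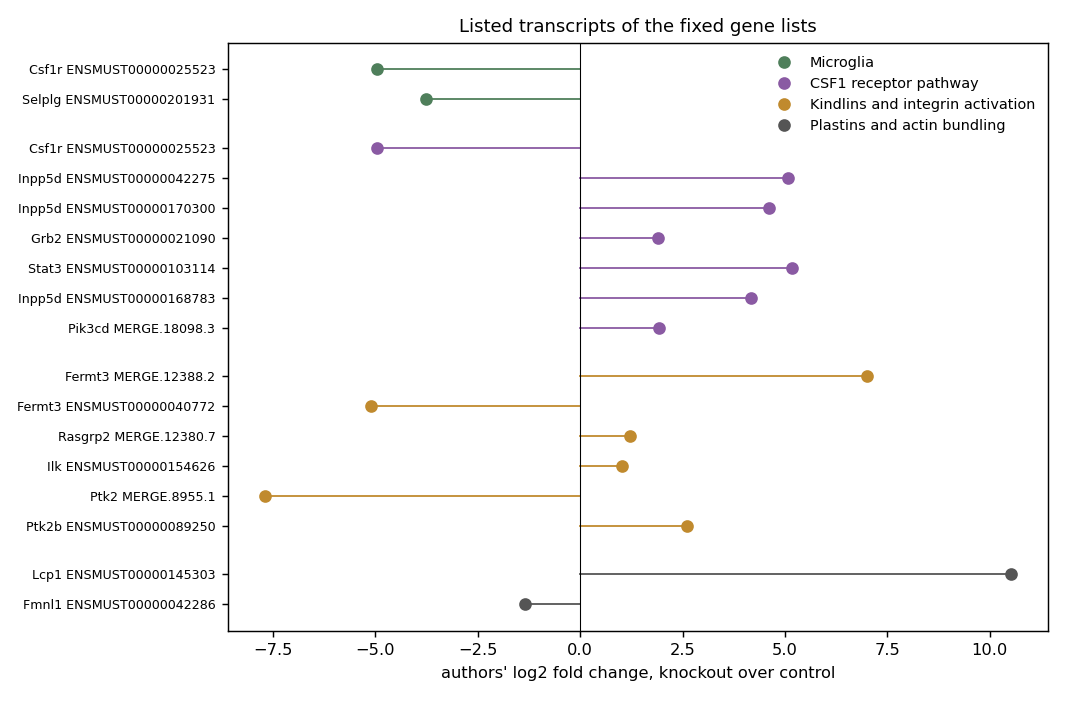
Log2 fold change (knockout over control) from the authors' deposited table for each listed transcript of 4 fixed gene lists, coloured by list. The 2 microglia transcripts lie below 0, the CSF1 receptor partners above 0 and Csf1r itself below, and Fermt3 has one row on each side.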

How the data were processed

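Total RNA was made into libraries with a NEBNext Ultra kit, per the labels. HISAT2, Cuffdiff and mm10 are named in the submitters' processing notes, with no versions. The authors deposited transcript abundances with no unit named, taken here as FPKM, and a log2 fold change, a p-value and an adjusted p-value from a test not given in the sources used here. All 8 abundance columns were matched to samples by genotype and number. Unnamed models took the symbol of their locus (n = 103), or of a gene that overlapped them reciprocally by 50% or more in sense (n = 291), and 147 stayed unnamed. Differences are of mean log2(FPKM + 0.5), which understates changes of low transcripts.

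Members and lists were chosen with earlier results of these data known. Named are all member rows, every listed gene of the lists (1 item is not reported here) and the 3 listed transcripts nearest to each member among 1236 with a name and a mean of at least 0.5 FPKM. No test compares the groups, since members and table were selected on that contrast. The profile ranking and the permutation were tested on simulated data. Alternatives were pseudocounts of 0.1 and 1, scaling by library median, filters on low values and each library left out. Python 3.11.15, numpy 2.4.6, pandas 2.3.3, scipy 1.17.1 and matplotlib 3.10.9 were used. Sequences are from RefSeq (GRCm38.p6). None is printed for Csf1r.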

Additional observations from a re-analysis of the deposited data

Results flagged for a closer look

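In 16 of 56 groups of 4 values for the transcripts named above, a single library stood off from the rest by more than Dixon's critical gap for 4 values. About 1 in 20 groups does so by chance if values are normally distributed, which low abundances are not. Over all listed transcripts, each single library stood far above the rest of its group for 3.34 to 4.71%. Those shares add up over the 4 libraries of a group, so the rate in the list itself exceeds 1 in 20. Csf1r-201 had such a library in each group, knockout replicate 1 at 1.57 FPKM and control replicate 1 at 21.3 FPKM. Mphosph8 MERGE.8110.1 had the same pair, at 3.81 FPKM in knockout replicate 1 and 6.22 FPKM in control replicate 1. Control replicate 1 also stood high for Mfge8, at 30.8 FPKM, and knockout replicate 1 for the merged models at Rbfox3, at 1.32 FPKM, and Arhgap20, at 0.678 FPKM. Mphosph8, Mfge8 and Arhgap20 were picked for their likeness to Csf1r-201 over these same libraries. A high library that they share with Csf1r-201 therefore follows in part from that choice.

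Control replicate 4 stood high for Selplg, at 4.20 FPKM, and for Ly6c1, at 6.87 FPKM. Control replicate 3 stood high for Dis3l, at 0.514 FPKM, and control replicate 2 stood low for Ilk, at 4.17 FPKM. The 3 Inpp5d isoforms each had a different high knockout library, replicate 4 for ENSMUST00000042275 at 1.63 FPKM, replicate 2 for ENSMUST00000170300 at 1.08 FPKM and replicate 3 for ENSMUST00000168783 at 0.790 FPKM. Knockout replicate 2 stood high for Msl1, at 7.6 FPKM, and knockout replicate 4 for Lamp5, at 0.615 FPKM. Msl1, Dis3l and Lamp5 were likewise named for their likeness to a member.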

How the results depend on the processing

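The direction of the 4 member differences and of the Fermt3 sum held under every alternative run. For Lcp1-209, both Fermt3 rows and the Fermt3 sum the groups do not overlap. No pseudocount or left-out library could therefore have reversed their direction, so this is no further support for it. With a pseudocount of 0.1 in place of 0.5, the log2 difference was 4.81 for Lcp1-209, -3.04 for Fermt3-201, 3.92 for MERGE.12388.2 and -3.60 for Csf1r-201. With a pseudocount of 1 these were 1.89, -1.15, 1.52 and -1.81. Scaling each library by its median moved no member difference beyond the spread between libraries. The difference in the Fermt3 sum was 0.31 with that scaling, and its groups then nearly met. With each library left out in turn, the log2 difference ranged from 2.65 to 2.72 for Lcp1-209, from -1.87 to -1.59 for Fermt3-201, from 2.15 to 2.30 for MERGE.12388.2, from -2.82 to -1.53 for Csf1r-201 and from 0.30 to 0.41 for the Fermt3 sum. The knockout minus control difference in the share of MERGE.12388.2 was 90.4 percentage points, and 88.4 to 94.1 with a library left out. The r between Fermt3 and Csf1r within groups ranged from -0.96 to -0.69, and its exact permutation p was 0.132 without knockout replicate 1, 0.0556 without knockout replicate 4, 0.188 without control replicate 1 and 0.0625 without control replicate 4. Fewer pairings are possible with 7 libraries. The microglia list had 2 lower transcripts, and 1 with a mean of at least 1 FPKM, because fewer transcripts remain under that filter. Abundances carry no counts, so counting error is unknown, and values near 0 are the least certain. No paired analysis was possible because no group difference reported here comes from a test. Same-numbered libraries had deviations from the group means with correlations from -0.03 to 0.04 over listed transcripts, which are not independent.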
